A study of Mus musculus with 8 samples.

Results

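A group of 5 genes of interleukin-2 and interleukin-7 signalling was followed across the arrays: the receptor chains Il2ra and Il7r, the feedback inhibitors Socs1 and Socs2, and the survival gene Bcl2. The members were the 13 probe sets that carried exactly these gene symbols in the authors' deposited list of 409 probe sets, of 45037 on the array beside its controls. Bcl2 had 5 of them and each other gene had 2. The RNA came from mixed lymphocyte reactions, in which T cells meet and respond to the cells of a genetically different mouse. Responders were 200000 CFSE-labelled C57BL/6 splenocytes per well, and stimulators were 800000 FVB/N splenocytes per well, irradiated with 30 Gy. After 5 days, CFSE-positive CD4 or CD8 cells were sorted and their RNA was measured on Affymetrix Mouse430_2 arrays. The 4 groups, with 2 arrays each, were CD8 cells under blockade, untreated CD8 cells, CD4 cells under blockade and untreated CD4 cells. Blockade means 50 µg each of CTLA4-Ig (which occupies the CD28 ligands), anti-LFA-1 (against an adhesion integrin) and anti-CD40L, present throughout. All groups shared the strain pair, the irradiated stimulators and the dye, so there was no group of cells cultured without stimulators. The share of cells in each group that had responded was not measured here. The labels give 4 mice per group and no ages, and whether replicate arrays stem from independent cultures is not stated. The p-values therefore reflect the spread between arrays, and that spread may be technical.

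Interleukin-2 and interleukin-7 bind receptors that share the common gamma chain and signal through JAK1 and JAK3 to the transcription factor STAT5. Naive T cells carry the interleukin-7 receptor and little of the interleukin-2 receptor alpha chain (CD25), whereas activated T cells raise CD25 and lower the interleukin-7 receptor. Activated STAT5 in turn induces Il2ra and the inhibitors Cish, Socs1 and Socs2. Both cytokines are known to maintain Bcl2, which blocks the mitochondrial pathway of apoptosis.

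The STAT5 dimer binds the motif TTCNNNGAA, which reads the same on both strands. It was searched in the RefSeq promoter windows (GRCm38.p6, 250 bases before to 50 after the gene's start) of the 4 members that matched the table, Il2ra, Il7r, Socs1 and Bcl2. The Il7r window held the motif once, 142 bases before the start, and the other 3 held none. Of all 32851 windows of this length, 8.30% held it, so a match in 1 of 4 windows is only a description of these letters. Binding was not measured, and sequence outside the windows was not searched. The 250 bases upstream of Il7r and Il2ra are printed to show both receptor genes side by side, one higher and one lower under blockade. Each is written 5′ to 3′ in the direction of the gene, with the fixed letters of the motif in capitals (Il7r at chr15:9529877-9530126 on the minus strand, Il2ra at chr2:11642542-11642791 on the plus strand).
Il7r: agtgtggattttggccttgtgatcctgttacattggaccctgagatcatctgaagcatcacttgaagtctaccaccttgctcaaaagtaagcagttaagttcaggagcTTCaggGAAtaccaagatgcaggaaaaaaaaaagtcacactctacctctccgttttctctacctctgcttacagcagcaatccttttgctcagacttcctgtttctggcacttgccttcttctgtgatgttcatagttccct
Il2ra: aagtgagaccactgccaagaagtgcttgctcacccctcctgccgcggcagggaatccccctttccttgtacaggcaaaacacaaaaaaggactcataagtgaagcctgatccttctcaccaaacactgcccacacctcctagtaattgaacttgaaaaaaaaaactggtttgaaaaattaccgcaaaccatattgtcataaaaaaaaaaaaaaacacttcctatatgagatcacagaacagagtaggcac

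The values, read as log2 because the files do not name the base, are differences from each probe set's own median over the 8 arrays, so they show where a gene was higher or lower and not how strongly it was expressed. A gene's value is the mean of its listed probe sets, and any unlisted probe set of the gene is not in it. The authors' list was selected on blockade against untreated: its smallest absolute difference, 4 blockade arrays averaged against 4 untreated arrays averaged, was 1.00. Among the 13 probe sets the smallest was 1.03, for Il7r probe set 1448575_at, and the next was 1.17, for Bcl2 probe set 1437122_at. Probe sets outside the list carry no gene name here, so those just below that limit could not be named. Of the unlisted probe sets, 159 had an absolute difference of at least 1, so this limit was not the only criterion. The blockade differences of all members are therefore given as a description without a test. Tests were run on what the list did not use, the differences between CD8 and CD4 cells. The list's test also needed a small spread within treatments, which includes the subset difference, so the subset comparisons are not wholly free of the selection.

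One array stood apart in its spike-ins: CD8 blockade replicate 1 had medians of 0.92 for the hybridization controls and 0.79 for the poly-A controls, where the other arrays had -0.23 to 0.13 and -0.44 to 0.23. CD4 untreated replicate 2 was at the low end of both ranges, though on poly-A close to CD8 blockade replicate 2 at -0.34. Counts of calls are also given without these 2 arrays. No probe set was named for Cd4, Cd8a, Cd3e or any other T cell marker fixed for the check, so the sorted subsets could not be compared with their own markers. Of 23 B cell markers 15 could be named, and their median lay between 0.62 and 0.68 on the CD8 blockade arrays, against -0.85 and -0.68 on the untreated CD8 arrays, and between 0.61 and 0.79 on the CD4 blockade arrays, against -0.80 and -0.59 on the untreated CD4 arrays. The neutrophil list (8 of 16 named) and the mast cell and basophil list (5 of 13 named) ran the other way, with medians of at most -1.17 on every blockade array and at least 1.21 on every untreated array. The 3 named macrophage and dendritic cell markers of 16 had medians of at least 0.63 on blockade arrays and at most -0.65 on untreated arrays. Markers could be named only from the authors' list, so each named one had already been selected to differ between blockade and untreated. A separation by treatment was therefore built into these medians, though its direction was not, and the unnamed markers could not be followed. The part of these other cells in the blockade differences of the 5 genes was not tested. In sorted samples, fewer cells of a type and less RNA per cell cannot be told apart.

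Under blockade the interleukin-2 receptor alpha chain and both inhibitors were lower in both subsets, the interleukin-7 receptor was higher, and Bcl2 was lower. For Il2ra, the CD8 arrays stood at -1.43 and -1.22 under blockade, against 0.87 and 1.27 untreated. On the CD4 arrays Il2ra stood at -0.87 and -0.997 under blockade, against 2.69 and 3.86 untreated. The untreated CD4 cells were thus the highest of the 4 groups, their replicates differed from each other more than those of any other group, and no blockade array reached an untreated one. The blockade minus untreated difference was -2.40 ± 0.32 in CD8 cells, a 5.27-fold lower level, and -4.21 ± 0.32 in CD4 cells, 18.5-fold lower (SE of the limma fit, n = 2 and 2 arrays here and below).

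**Figure D1:**
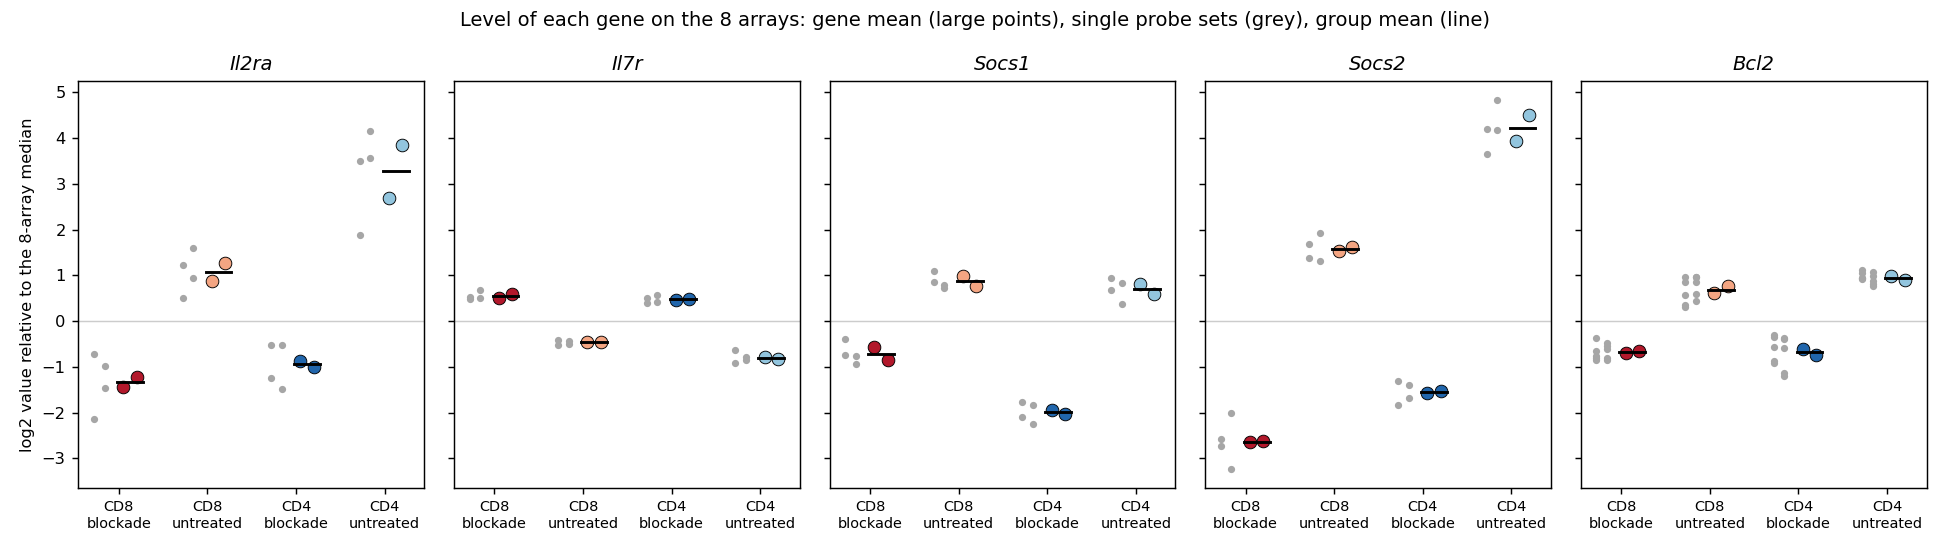
Log2 value relative to the 8-array median (vertical axis) for each of the 5 genes in the 4 groups, with 2 arrays each. Large points are gene means, grey points single probe sets and black lines group means. Il2ra and Socs2 are highest in untreated CD4 cells, Socs1 is lowest in CD4 cells under blockade, and Il7r alone is higher under blockade.

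The probe sets of Il2ra differed in size. Probe set 1420692_at changed by -3.22 ± 0.27 in CD8 cells and by -5.18 ± 0.27 in CD4 cells. Probe set 1420691_at changed by -1.58 ± 0.44 in CD8 cells and by -3.24 ± 0.44 in CD4 cells, and its untreated CD4 arrays lay far apart, at 1.88 and 3.57. Both ran the same way in both subsets, with a size that depends on the probe set.

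Il7r, the alpha chain that binds interleukin-7, ran against the other 4. Its CD8 arrays stood at 0.51 and 0.59 under blockade, against -0.46 and -0.46 untreated, and its CD4 arrays at 0.46 and 0.49 under blockade, against -0.78 and -0.82 untreated. The order of the groups was CD8 blockade, CD4 blockade, untreated CD8 and untreated CD4, with every array of a treatment on one side. The difference was 1.01 ± 0.09 in CD8 cells (2.02-fold higher under blockade) and 1.27 ± 0.09 in CD4 cells (2.42-fold higher). Its probe sets were close to each other, at 0.93 and 1.09 in CD8 cells and 1.12 and 1.43 in CD4 cells.

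Socs2, an SH2-domain protein that dampens cytokine and growth hormone receptors, had the largest difference of the 5 genes in both subsets. On the CD8 arrays it stood at -2.65 and -2.62 under blockade, against 1.53 and 1.62 untreated, and on the CD4 arrays at -1.58 and -1.53 under blockade, against 3.93 and 4.51 untreated. Both subsets were far apart by treatment, and within each treatment the CD8 arrays were below the CD4 arrays. The difference was -4.21 ± 0.17 in CD8 cells (18.5-fold lower) and -5.77 ± 0.17 in CD4 cells (54.7-fold lower). Probe set 1418507_s_at, whose suffix marks probes shared by several transcripts, changed by -4.09 ± 0.24 in CD8 and -6.29 ± 0.24 in CD4 cells, and probe set 1449109_at by -4.33 ± 0.20 and -5.26 ± 0.20.

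Socs1, which binds JAK kinases directly and is also induced by interferons, differed from Socs2 in its pattern. Its CD8 arrays stood at -0.56 and -0.85 under blockade, against 0.99 and 0.77 untreated, and its CD4 arrays at -1.93 and -2.03 under blockade, against 0.82 and 0.61 untreated. The untreated groups overlapped, and the CD4 cells under blockade lay below all other arrays. The difference was -1.58 ± 0.14 in CD8 cells (3.00-fold lower) and -2.69 ± 0.14 in CD4 cells (6.47-fold lower). In CD8 cells its probe sets were alike, at -1.62 and -1.55, while in CD4 cells they were at -2.33 for 1440047_at and -3.06 for 1450446_a_at.

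Bcl2 had the smallest differences of the 4 genes that were lower under blockade. Its CD8 arrays stood at -0.69 and -0.66 under blockade, against 0.61 and 0.76 untreated, and its CD4 arrays at -0.60 and -0.74 under blockade, against 1.00 and 0.90 untreated. The blockade groups of the subsets overlapped, and the untreated CD4 arrays were above the untreated CD8 arrays. The difference was -1.36 ± 0.10 in CD8 cells (2.56-fold lower) and -1.62 ± 0.10 in CD4 cells (3.07-fold lower). Its 5 probe sets spanned -1.80 to -0.92 in CD8 cells and -1.97 to -1.34 in CD4 cells. The largest differences were those of 1440770_at and 1443837_x_at, the second of which has a suffix for probes that can bind unrelated transcripts.

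**Figure D2:**
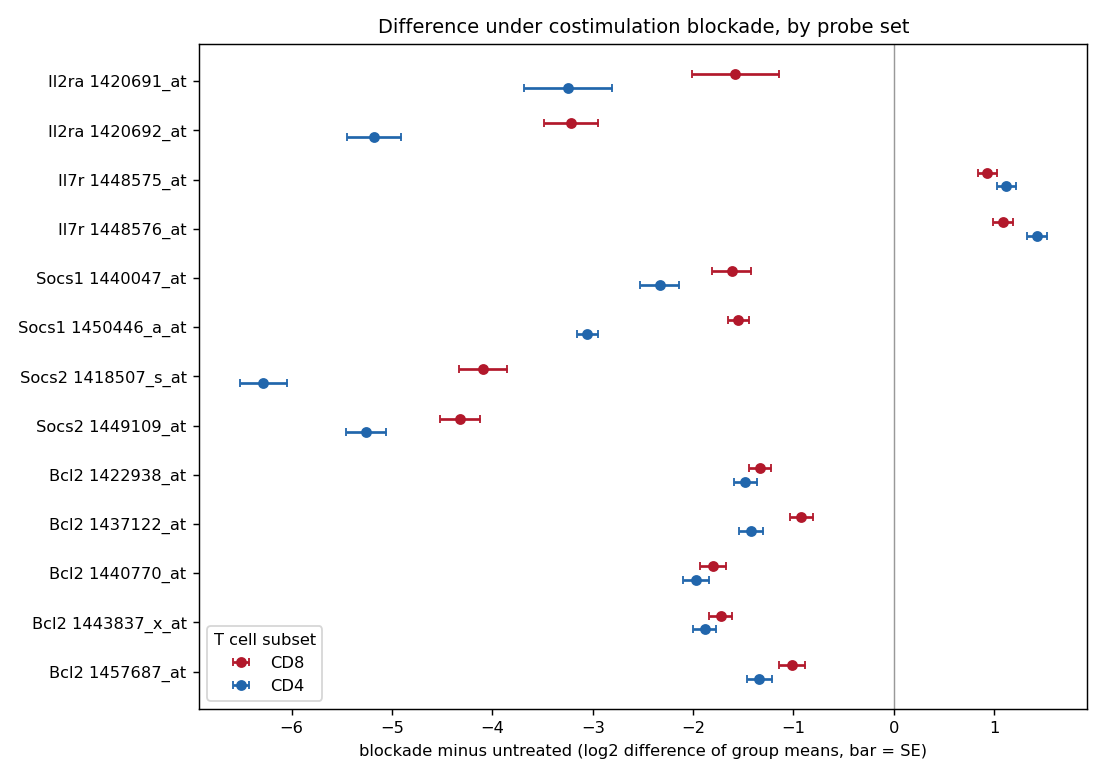
Blockade minus untreated (log2 difference of group means, bar = SE) for each of the 13 probe sets, in CD8 (red) and CD4 (blue) cells. The 2 Il7r probe sets lie right of 0 and the 11 others left of it, and the spread between probe sets is widest for Il2ra. These differences chose the list and carry no test.

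Without blockade, CD8 cells had less Il2ra and less Socs2 RNA than CD4 cells. For Socs2 the CD8 arrays were at 1.53 and 1.62, against 3.93 and 4.51 in CD4 cells. The CD8 minus CD4 difference was -2.64 ± 0.17 (6.25-fold lower, adjusted p = 6.8e-05 by limma with Benjamini-Hochberg adjustment over 44951 features, the procedure for every gene mean here unless another is named). Leaving out any 1 array gave -2.94 to -2.35, with adjusted p of at most 0.00089, and quantile normalization between arrays gave a smaller -1.66 (adjusted p = 0.00038). Both probe sets passed, at -2.72 (adjusted p = 0.00042) and -2.56 (adjusted p = 0.00022). Adjusted p-values of single probe sets, here and below, come from the same procedure over 45037 probe sets. Quantile normalization was applied to values already relative to each probe set's median. It makes the distribution of these differences alike on all arrays and is no check of how the signal was scaled.

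Il2ra was lower in untreated CD8 cells by a difference of -2.21 ± 0.32 (4.61-fold, adjusted p = 0.0072). The call was lost without CD8 untreated replicate 1 (-2.01, adjusted p = 0.055), in a fit of the 4 untreated arrays alone (adjusted p = 0.052) and without moderation of the variances (adjusted p = 0.21). The size also moved with the untreated CD4 arrays, to -1.62 without replicate 2 and to -2.79 without replicate 1, and quantile normalization gave -1.25 (adjusted p = 0.0069). Probe set 1420692_at passed (-2.41, adjusted p = 0.0018), and 1420691_at missed the threshold (-2.00, adjusted p = 0.058). The untreated CD4 arrays moved the size of 1420691_at, which passed without either of them, at -2.84 (adjusted p = 0.00081) without replicate 1 and -1.15 (adjusted p = 0.048) without replicate 2, and was at -1.15 (adjusted p = 0.076) without CD8 blockade replicate 1 and CD4 untreated replicate 2.

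The other 3 genes did not pass in untreated cells. Il7r was at 0.34 ± 0.09 (95% interval 0.13 to 0.54, adjusted p = 0.13), Bcl2 at -0.26 ± 0.10 (-0.50 to -0.03, adjusted p = 0.37) and Socs1 at 0.16 ± 0.14 (-0.15 to 0.48, adjusted p = 0.77). The Bcl2 probe sets split: 1437122_at and 1457687_at were lower in CD8 cells (-0.58 and -0.63, adjusted p = 0.040 and 0.042), while 1422938_at lay at -0.19, 1440770_at at 0.035 and 1443837_x_at at 0.05. The call of 1437122_at was lost without any 1 of the 8 arrays (-0.71 to -0.46, adjusted p of 0.053 to 0.25), and that of 1457687_at without 6 of the 8 (-0.70 to -0.56 over all 8, adjusted p up to 0.26). In all, 2 of the 5 genes were lower in CD8 cells and none higher, where 1.42% of all features were lower and 1.08% higher. Of the 13 probe sets 5 were lower and 8 did not pass (background 1.43% lower); without CD8 blockade replicate 1 and CD4 untreated replicate 2, 3 were lower. The median difference was -0.264 over the 5 genes and 0.002 over all features. The members passed the list's selection on the blockade difference and most features did not. Here and below, their shares and medians are therefore not of like sets with those of all features.

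Under blockade, the inhibitors differed between the subsets in opposite directions. Socs1 was higher in CD8 cells, at -0.56 and -0.85 on the CD8 arrays, against -1.93 and -2.03 on the CD4 arrays. The CD8 minus CD4 difference was 1.27 ± 0.14 (2.42-fold higher, adjusted p = 0.0016), and it passed without any 1 array (1.13 to 1.42, adjusted p of at most 0.024). Both probe sets passed, at 1.13 (adjusted p = 0.021) and 1.42 (adjusted p = 0.00016), although 1440047_at missed the threshold without CD8 blockade replicate 1 (0.85, adjusted p = 0.10) or without CD4 blockade replicate 1 or 2 (1.16 and 1.11, adjusted p = 0.12 and 0.16).

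Socs2 was lower in CD8 cells under blockade, at -2.65 and -2.62, against -1.58 and -1.53 in CD4 cells. The difference was -1.08 ± 0.17 (2.11-fold lower, adjusted p = 0.013). The size stayed between -1.10 and -1.06 when 1 array was left out, but the call was lost without any 1 of the 4 blockade arrays, with adjusted p of 0.096 and 0.063 without CD8 replicates 1 and 2 and of 0.086 and 0.11 without CD4 replicates 1 and 2. Quantile normalization gave a larger -1.63 (adjusted p = 0.00039). The call rested on probe set 1449109_at (-1.63, adjusted p = 0.0034), since 1418507_s_at was at -0.53 (adjusted p = 0.43). Without moderation neither inhibitor passed (adjusted p = 0.091 for Socs1 and 0.20 for Socs2).

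Il2ra, Il7r and Bcl2 did not pass under blockade. Il2ra was at -0.39 ± 0.32 (95% interval -1.12 to 0.33, adjusted p = 0.70), Il7r at 0.07 ± 0.09 (-0.13 to 0.28, adjusted p = 0.82) and Bcl2 at -0.003 ± 0.10 (-0.24 to 0.23, adjusted p = 1). The interval of Il2ra leaves room for a CD8 level lower than that of CD4 by over 1 log2 unit, whereas those of Il7r and Bcl2 stay within 0.28 in either direction. Thus 1 of the 5 genes was higher and 1 lower in CD8 cells, beside 1.08% and 1.12% of all features. Of the 13 probe sets 2 were higher and 1 lower (background 1.08% and 1.11%), and without CD8 blockade replicate 1 only 1 was higher. The median difference was -0.003 over the 5 genes and 0.005 over all features.

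**Figure D3:**
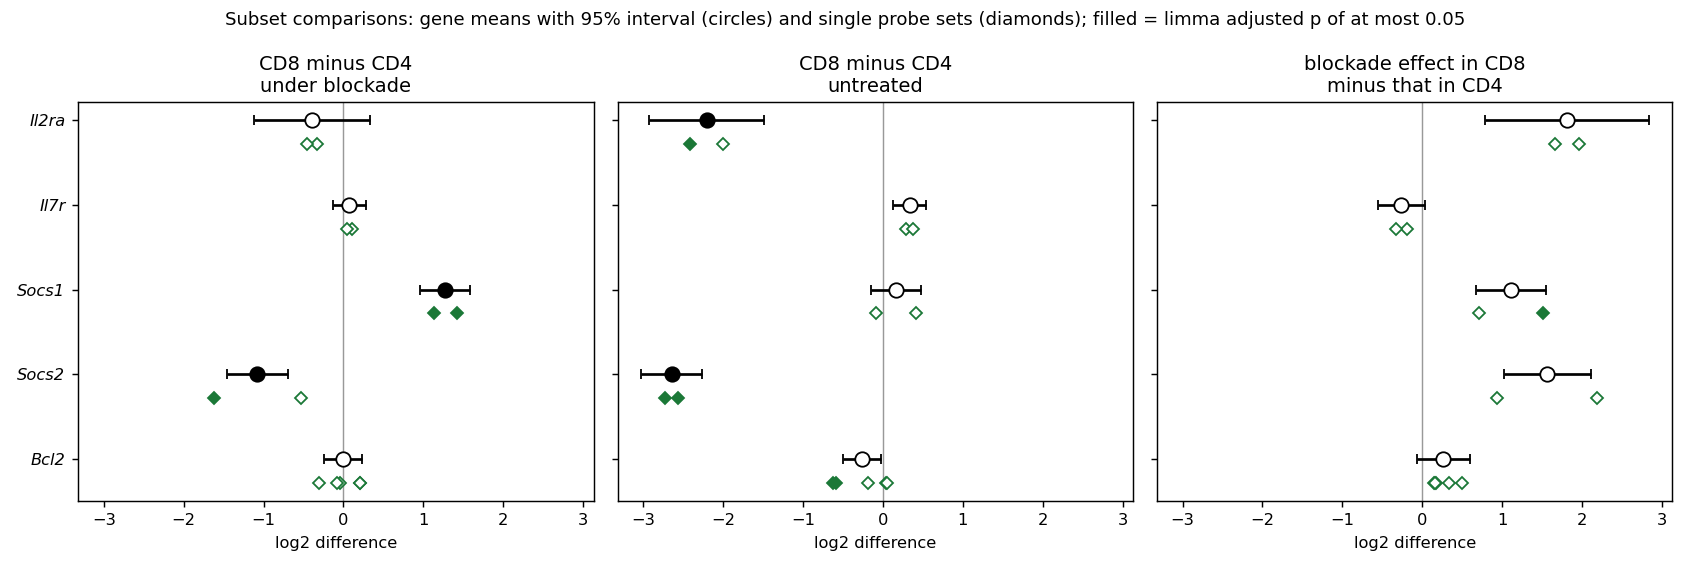
CD8 minus CD4 under blockade (left), CD8 minus CD4 untreated (middle) and the blockade effect in CD8 minus that in CD4 (right), in log2 units. Circles are gene means with 95% intervals, diamonds single probe sets, and filled symbols passed an adjusted p of 0.05. Gene means that passed were Socs2, left of 0 in both subset comparisons, and Il2ra, left of 0 in the untreated one. Socs1 passed right of 0 under blockade. No gene mean passed in the right panel.

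Whether blockade acted unequally on the subsets was tested as the blockade difference in CD8 cells minus that in CD4 cells. None of the 5 genes passed by limma, although 3 had an unadjusted p under 0.05, and the test without moderation, which called 1 of all 44951 features, called 0 of them. The values were 1.81 ± 0.45 for Il2ra (95% interval 0.79 to 2.84, adjusted p = 0.59), 1.56 ± 0.24 for Socs2 (1.02 to 2.11, adjusted p = 0.11) and 1.11 ± 0.19 for Socs1 (0.67 to 1.55, adjusted p = 0.20). They were -0.26 ± 0.13 for Il7r (-0.55 to 0.03, adjusted p = 0.98) and 0.26 ± 0.15 for Bcl2 (-0.07 to 0.59, adjusted p = 0.98). Over all features 0.0578% passed this comparison, so few differences of this kind were called on the whole array. Without CD4 untreated replicate 1, Il2ra (2.40, adjusted p = 0.041) and Socs2 (1.86, adjusted p = 0.015) passed. With quantile normalization of the relative values the sizes shrank to 0.87 for Il2ra, 0.71 for Socs1 and 0.03 for Socs2.

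Of the single probe sets, 1 of 13 passed, beside 0.0622% of all probe sets. This was Socs1 1450446_a_at, whose CD8 arrays stood at -0.73 and -0.76 under blockade, against 0.87 and 0.73 untreated, and whose CD4 arrays stood at -2.10 and -2.24 under blockade, against 0.95 and 0.83 untreated. Its blockade difference was smaller in CD8 than in CD4 cells by 1.51 ± 0.15 (adjusted p = 0.014). Leaving out 1 array kept the size between 1.44 and 1.58, but 7 of the 8 such fits lost the call, with adjusted p of at most 0.10, and it was kept without CD8 untreated replicate 1 (adjusted p = 0.044). The other Socs1 probe set was at 0.71 ± 0.28 (adjusted p = 0.97). Il2ra 1420691_at, at 1.66 ± 0.62 with all arrays, passed without CD4 untreated replicate 1 (2.51, adjusted p = 0.042). The median over the 5 genes was 1.11 and that over all features 0.002, with a median absolute value of 0.127 over all features. The 5 genes were selected on a large blockade difference and most features were not. These shares and medians are therefore not of like sets.

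Other genes of the pathway were taken from lists of receptors, ligands, kinases, inhibitors and targets, and could be named only where the deposited list held them, so they share its selection on the blockade difference. Of 9 receptors of the common gamma chain family, Il15ra (the interleukin-15 receptor alpha chain) was named beside Il2ra and Il7r. It differed by -0.88 ± 0.10 in CD8 and -1.21 ± 0.10 in CD4 cells under blockade, and its CD8 minus CD4 difference under blockade was 0.42 (adjusted p = 0.097). None of 7 ligands was named. From the list of JAK and STAT genes, Stat2, which carries interferon signals, differed by -1.37 ± 0.14 in CD8 and -1.92 ± 0.14 in CD4 cells under blockade. It did not pass in a subset comparison, the nearest being that of untreated cells (-0.57, adjusted p = 0.082).

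Of 13 inhibitors of cytokine signalling, Cish was the third that could be named. Cish, an SH2 protein and a direct STAT5 target, stood at -1.58 and -1.48 in CD8 cells under blockade, against 0.61 and 0.85 untreated, and at -0.98 and -0.61 in CD4 cells under blockade, against 2.69 and 2.97 untreated. As with Socs2, the untreated CD4 arrays were the highest and the CD8 blockade arrays the lowest. In untreated cells Cish was lower in CD8 than in CD4 cells by a difference of -2.10 ± 0.15 (adjusted p = 0.00016), and under blockade the difference was -0.74 ± 0.15 (adjusted p = 0.054).

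Of 37 listed STAT5 targets 11 could be named, among them Il2ra, Socs1, Socs2, Bcl2 and Cish. In untreated cells 5 of the 11 were lower in CD8 cells and 6 did not pass, beside 1.42% of all features lower. These were Socs2, Il2ra and Cish with Tnfrsf9, the costimulatory receptor CD137 (-2.13 ± 0.16, adjusted p = 0.00021), and Lif, a cytokine of the interleukin-6 family (-1.57 ± 0.28, adjusted p = 0.021). Socs2 and Il2ra were already counted above. The 11 passed the list's selection on the blockade difference and most features did not, so the shares are not of like sets. The call of Lif was lost without CD8 untreated replicate 1 (-1.28, adjusted p = 0.13) or CD4 untreated replicate 2 (-1.10, adjusted p = 0.082). Gzmb, Ccnd2, Cdk6 and Tfrc did not pass there, with Gzmb (granzyme B) at 0.67 ± 0.34 (adjusted p = 0.53). Under blockade only Socs1 (higher) and Socs2 (lower) passed among the 11, beside 1.08% and 1.12% of all features. In the difference of blockade effects only Tnfrsf9 passed (1.94 ± 0.23, adjusted p = 0.043), beside 0.0578% of all features. Leaving out 1 array kept its size between 1.70 and 2.17, and its call was kept only when CD4 untreated replicate 1 was the array left out (adjusted p = 0.032). Without CD8 blockade replicate 1 and CD4 untreated replicate 2, 4 of the 11 were lower in untreated CD8 cells and 2 passed under blockade. No feature of the whole array then passed the difference of effects, where Tnfrsf9 was at 1.66. The median of the 11 in untreated cells was -0.26. Bcl2 was the sole named gene of 19 in the BCL2 family list and Il7r the sole one of 18 in the list of FOXO1 and quiescence genes, so neither could be set beside its relatives.

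**Figure D4:**
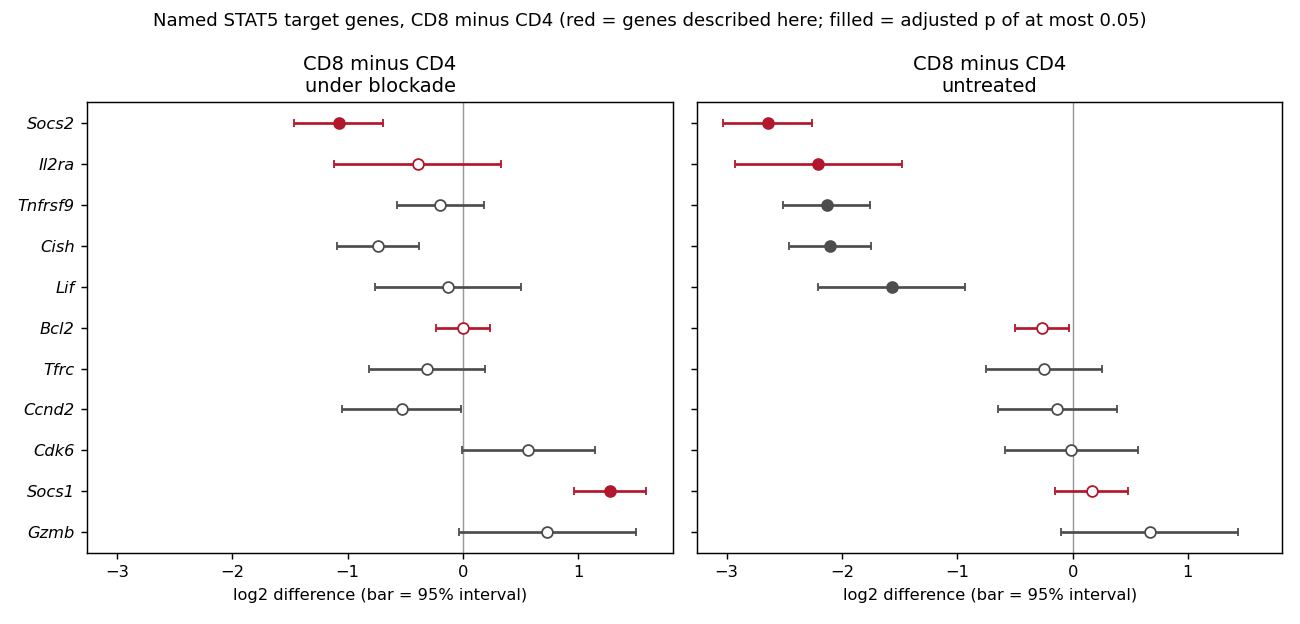
CD8 minus CD4 log2 difference with 95% interval for the 11 named STAT5 targets, under blockade (left) and untreated (right). Red marks Il2ra, Socs1, Socs2 and Bcl2, and filled points passed an adjusted p of 0.05. In untreated cells 5 genes lie at -1.57 or lower and the other 6 between -0.26 and 0.67.

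For each of the 5 genes, the most similar of the 288 other named genes were found by the root mean square difference of values centred on the gene's own mean, in log2 units over 8 arrays, a measure that mostly reflects the size of the blockade difference. Correlation over the same 8 arrays, which share that difference, was high for pairs far apart on this measure, such as Socs2 and Bcl2 (r = 0.958 at 1.99) or Il2ra and Socs2 (r = 0.988 at 0.908). The nearest to Il2ra were Ifitm3 (0.330), Cish (0.340) and Tnfrsf9 (0.362). The nearest to Socs2 were Tnfrsf9 (0.662), Iigp1 (0.864) and Il2ra (0.908), with a correlation of 0.993 to Tnfrsf9. The nearest to Socs1 were Tdgf1 (0.246), Tmem140 (0.280) and Parp12 (0.312). The nearest to Bcl2 were Parp14 (0.110), Pml (0.125) and Gdap10 (0.134). The nearest to Il7r were Pou2af1 (0.099), Cd79b (0.137) and Pxdc1 (0.149). Pou2af1 and Cd79b are B cell genes. The 15 named B cell markers differed by a median of 1.38 in CD8 and 1.43 in CD4 cells under blockade, beside 1.01 and 1.27 for Il7r. Both the markers and Il7r were named only through the list selected on this difference. The part of B cells in the Il7r values was not tested.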

How the data were processed

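Per the labels, gene expression was measured on Affymetrix Mouse430_2 arrays. The authors deposited values on a log scale, read here as log2, each relative to the probe set's median over the 8 arrays. No source names the base of the logarithm, the probe summary or the scaling between arrays. Base 2 was assumed, and every fold rests on it. A second deposited file lists 409 probe sets with gene symbols, chosen by an unpaired test at a corrected p-value of at most 0.05 per the file headers. Its values equal those of the full table. Titles of the samples gave the groups and replicate numbers.

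The 64 array controls were left out of the tests. Listed probe sets of 1 gene were averaged, which left 44951 features, and limma 3.58.1 (R 4.3.3) fitted a mean per group over all 8 arrays with eBayes, two-sided, at an adjusted p of 0.05. Degrees of freedom were 4 residual and 4.48 from the prior. Single probe sets were fitted the same way over 45037 probe sets. With 2 arrays against 2, an exact permutation test cannot go below p = 0.333, so none was used. The number of arrays limits the precision, and depth does not apply.

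The members and gene lists were chosen with earlier results of these data known. Named genes were the members, the nameable genes of the lists (1 result is not reported here) and the 3 genes nearest to each member. Current symbols were taken through Entrez identifiers from a RefSeq table of GRCm38.p6. Same-numbered replicates did not deviate together (correlations of -0.03 to 0.078 over 6 pairs of groups), so the numbers do not pair the samples. Alternatives were a replicate block, quantile normalization of the deposited relative values, array weights, a robust prior, no moderation, fewer arrays and single probe sets. The fit was tested on simulated data.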

Additional observations from a re-analysis of the deposited data

Results flagged for a closer look

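The blockade difference of Socs1 probe set 1450446_a_at was less negative in CD8 than in CD4 cells by 1.51 log2 units, and the test of this difference between the subsets passed (limma, adjusted p = 0.014). The other Socs1 probe set was at 0.71 (adjusted p = 0.97) and the gene mean at 1.11 (adjusted p = 0.20). Leaving out 1 array gave 1.44 to 1.58, and the call was lost in 7 of the 8 cases (adjusted p of at most 0.10).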

How the results depend on the processing

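Over the 5 genes and 3 subset comparisons, 234 of the alternative values kept their direction and their side of the threshold, 11 lost the call, 5 gained one and 9 changed sign without a call. With a replicate block no call changed. Il2ra and Socs2 in untreated cells then stayed at -2.21 (adjusted p = 0.0045) and -2.64 (adjusted p = 0.00011). What same-numbered arrays have in common beyond the number is not stated. Without moderation Il2ra in untreated cells (-2.21) and Socs1 and Socs2 under blockade (1.27 and -1.08) lost their calls, which left 1 gene passing in untreated cells and 0 under blockade. In the 4 untreated arrays alone Il2ra (-2.21) was lost and 1 gene passed. Leaving out 1 array gave Il2ra -2.79 to -1.62 and Bcl2 -0.34 to -0.19 in untreated cells, and Socs2 -1.10 to -1.06 and Bcl2 -0.0696 to 0.0638 under blockade, with values of 0.0132 and 0.0638 above 0 in 2 of the 8 cases. For the difference of effects it gave Il2ra 1.23 to 2.40 and Socs2 1.27 to 1.86. The count of genes passing was then 0 to 2 for the difference of effects, 1 to 2 in untreated cells and 1 to 2 under blockade. The all-feature counts were 5 to 26 (26 with all arrays), 551 to 1070 (1123) and 505 to 884 (990). Bcl2 under blockade was at 0.0144 with quantile normalization and 0.0132 without CD8 blockade replicate 1 and CD4 untreated replicate 2.

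By single probe set, the difference of effects passed for Socs1 1450446_a_at (1.51). In untreated cells 1420691_at of Il2ra lost the call (-2.00), 1437122_at and 1457687_at of Bcl2 gained one (-0.58 and -0.63), and 1440770_at (0.035), 1443837_x_at (0.05) and Socs1 1450446_a_at (-0.0889) had the other sign than the gene mean. Under blockade 1418507_s_at of Socs2 lost the call (-0.53), and 1440770_at and 1443837_x_at of Bcl2 were at 0.20 and 0.21.

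The blockade differences of all 5 genes kept their sign in every alternative run. Of the alternative values in both subsets, 139 stayed within the replicate spread and 37 moved by more. With quantile normalization the blockade differences were 1.08 for Il7r and -4.43 for Socs2 in CD8 cells. In CD4 cells they were then -3.15 for Il2ra, 1.44 for Il7r, -2.23 for Socs1, -4.47 for Socs2 and -1.37 for Bcl2. Without CD8 blockade replicate 1 and CD4 untreated replicate 2 they were 1.05 for Il7r in CD8 cells, and -3.63 for Il2ra and -5.48 for Socs2 in CD4 cells, with 1 array left in 2 of the groups, assumed to vary like the others. Leaving out 1 array gave 0.97 to 1.05 for Il7r in CD8 cells, and -4.79 to -3.63 for Il2ra and -6.07 to -5.48 for Socs2 in CD4 cells. By single probe set they were -1.58 and -3.22 for Il2ra, 0.93 and 1.09 for Il7r and -0.92, -1.80, -1.72 and -1.01 for Bcl2 in CD8 cells. In CD4 cells they were -3.24 and -5.18 for Il2ra, 1.12 and 1.43 for Il7r, -2.33 and -3.06 for Socs1, -6.29 and -5.26 for Socs2, and -1.48, -1.42, -1.97, -1.89 and -1.34 for Bcl2. The causes of these shifts were not tested beyond what the alternatives' construction shows. Without signal levels, dim probe sets could not be filtered. The leave-out fits of single probe sets were added after seeing the data.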

Other observations

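Of 29 other cytokine receptors listed, Csf2rb, the shared beta chain of the receptors for interleukin-3, interleukin-5 and GM-CSF, and Csf2rb2, the second mouse beta chain, used for interleukin-3, could be named. Under blockade Csf2rb differed by -1.07 ± 0.23 in CD8 and -1.38 ± 0.23 in CD4 cells, and Csf2rb2 by -1.84 ± 0.26 in CD8 and -1.37 ± 0.26 in CD4 cells. Neither passed a comparison between the subsets, with differences of the blockade effect of 0.31 and -0.47 (limma, adjusted p = 0.98 for both). The 5 named mast cell and basophil markers had median blockade differences of -3.67 in CD8 and -3.31 in CD4 cells. These cells are known to carry these receptors, and their part was not tested. The markers and both receptors were named only through the list selected on the blockade difference.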
